A study of Homo sapiens with 12 samples.

Results

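Neuroendocrine markers are the genes whose products pathologists stain to recognise hormone-secreting tumour cells, and 10 of them were followed here in a pair of human pancreatic carcinoma lines. The members were the rows of the deposited count table whose Ensembl identifiers map to CHGA, CHGB, SCG2, SCG5, PCSK1, SYP, ENO2, SSTR2, NTSR1 and INSM1, which are 10 of the 63677 gene rows. MIA PaCa-2 and PANC-1 are established lines derived from pancreatic carcinomas. Each line received either negative control siRNA or a mixture of 2 siRNAs to RBM3, which encodes an RNA-binding protein induced by cold, at 25 nM for 4.5 h after 72 h of culture, followed by an overnight recovery. The 4 groups held 3 libraries each (MIA PaCa-2 control replicates 1, 2 and 4, MIA PaCa-2 RBM3 siRNA replicates 1, 2 and 5, PANC-1 control replicates 1, 2 and 4, and PANC-1 RBM3 siRNA replicates 1, 2 and 3). All of them were transfected, so no group shows the lines without siRNA.

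Neuroendocrine cells keep peptide hormones in dense-core granules and release them on demand. The granins (CHGA, CHGB and SCG2 among them) are acidic proteins that condense in these granules, the prohormone convertases cut hormone precursors inside them, and INSM1 is a zinc-finger transcription factor of the neuroendocrine lineage. SYP and ENO2 mark vesicles and glycolysis of neurons and endocrine cells, and SSTR2 and NTSR1 are the peptide receptors that are imaged or targeted in neuroendocrine and pancreatic tumours. Chromogranin A and synaptophysin are the usual stains for such tumours in the pancreas.

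Promoters of a pair of near-silent members, CHGA and PCSK1, carry the full cyclic AMP response element, TGACGTCA, a palindrome bound by CREB-family factors and known from granule genes. The 80 bases from 100 to 21 upstream of the RefSeq start are shown for both, for VGF, a granin-like gene with the same element that the lines do express, and for the expressed members ENO2 and SYP. Coordinates are GRCh38.p14 and sequences read 5′ to 3′ on the gene's strand. Capitals mark the response element in the first 3 and the GC box (GGGCGG on either strand) in the last 2.
CHGA, chr14:92923050-92923129, plus strand: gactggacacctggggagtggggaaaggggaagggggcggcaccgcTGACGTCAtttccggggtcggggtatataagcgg
PCSK1, chr5:96433269-96433348, minus strand: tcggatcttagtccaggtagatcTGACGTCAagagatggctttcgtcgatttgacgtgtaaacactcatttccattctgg
VGF, chr7:101165590-101165669, minus strand: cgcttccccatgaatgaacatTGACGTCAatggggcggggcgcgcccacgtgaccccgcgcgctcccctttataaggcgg
ENO2, chr12:6914480-6914559, plus strand: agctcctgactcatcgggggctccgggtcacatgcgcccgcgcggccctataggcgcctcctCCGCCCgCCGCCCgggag
SYP, chrX:49200214-49200293, minus strand: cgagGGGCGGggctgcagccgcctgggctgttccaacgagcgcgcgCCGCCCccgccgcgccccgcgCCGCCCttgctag

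RefSeq promoter windows matched 7 of the 10 members, and were searched over the 250 bases before each start on both strands. The response element began 54 bases upstream of CHGA, 77 bases upstream of one of the PCSK1 starts and 79 bases upstream of VGF. It was found in 1.65% of all 35116 windows. On the neuroendocrine and marker lists, 8 of the 124 genes with a window had it in at least 1 window, namely CARTPT, CHGA, PAX6, PCSK1, SLC18A2, SST, SYN1 and VGF. A gene can have more than 1 window, so the share of genes and the share of windows are not comparable. The GC box, present in 42.6% of all windows, lay in the windows of all 7 members. TATAAA, present on either strand in 10.7%, lay upstream of the other PCSK1 start and of VGF. In VGF it lay on the strand opposite to the gene, and the stretch shown reads TTTATA. GC content ranged from 48.0% in the PCSK1 window shown to 82.0% in NTSR1, against a median of 58.0% over all windows. A match describes letters in the window and nothing about binding in these cells.

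The libraries held 14217185 to 39652502 counts, and levels are given as CPM, counts scaled to the library size with TMM factors. A count of 0 leaves room for 3 counts, which equal 0.0714 to 0.208 CPM. RBM3 itself was at 207 to 277 CPM in MIA PaCa-2 control libraries and 37.4 to 61.9 CPM with RBM3 siRNA, and at 426 to 567 CPM and 83.0 to 195 CPM in PANC-1. Of the ductal epithelial markers, the keratins KRT8, KRT18 and KRT19 averaged 1258, 1032 and 351 CPM in MIA PaCa-2 and 2632, 1562 and 1247 CPM in PANC-1, whereas KRT7, EPCAM and CDH1 averaged 0.125, 0.0439 and 0.283 CPM in MIA PaCa-2 and 5.61, 25.1 and 8.77 CPM in PANC-1. Of the 8 ductal markers tested, 7 were higher and 1 lower in PANC-1 control. Over all 17862 tested genes 26% were higher and 24.8% lower. The lower marker was SOX9 (log2 difference -0.63, edgeR adjusted p = 0.0389). All 10 acinar markers were below 1 CPM in every library. Of 7 immune markers 5 were below 1 CPM in every library. The summed level of all 7 was 10.6 to 22.3 CPM in MIA PaCa-2 control and 1.87 to 2.62 CPM in PANC-1 control. Of the 3 tested, LYZ and CD14 were lower in PANC-1 control (log2 differences -6.09 and -2.68), and CD79A was not called. Whether any immune cells were present was not tested. In bulk RNA, fewer cells of a type and less RNA per cell cannot be told apart. Nothing in the labels tells whether replicates came from separate cultures, and the p-values therefore speak only of the spread among these libraries, which may be technical.

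One library, PANC-1 RBM3 siRNA replicate 3, stood apart from its label. It held transcripts otherwise seen in MIA PaCa-2, with COL1A2 at 441 CPM, ALDH1A1 at 682 CPM, UCA1 at 69.8 CPM and SLC17A9 at 30.3 CPM. In the other 5 PANC-1 libraries these genes averaged 0.673, 0.867, 0.0561 and 0.0721 CPM. Its FOXA2, a PANC-1 transcript, was at 42.7 CPM against a mean of 73.4 CPM in the other 5. Of the members, SCG2 in that library was 4.27 CPM, inside the 1.29 to 5.15 CPM of the other PANC-1 libraries and far under the MIA PaCa-2 libraries, and its CHGB was also inside their range. Its SCG5 (1.05 CPM), SYP (11.1 CPM) and NTSR1 (119 CPM) were the lowest of the 6 PANC-1 libraries. Member values under RBM3 siRNA are also given without it.

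Another pair of PANC-1 libraries resembled each other across groups. Deviations from the group mean over all tested genes correlated at 0.66 between PANC-1 control replicate 1 and PANC-1 RBM3 siRNA replicate 2. These libraries had the highest CHGB of PANC-1 (6.46 and 6.26 CPM) and the highest SCG2 (4.41 and 5.15 CPM). Without both, an alternative added after seeing the data, the same members were called in each line comparison. There CHGB differed by 1.68 under control siRNA and 2.21 under RBM3 siRNA on the log2 scale, and SCG2 by -5.14 and -3.32.

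**Figure D1:**
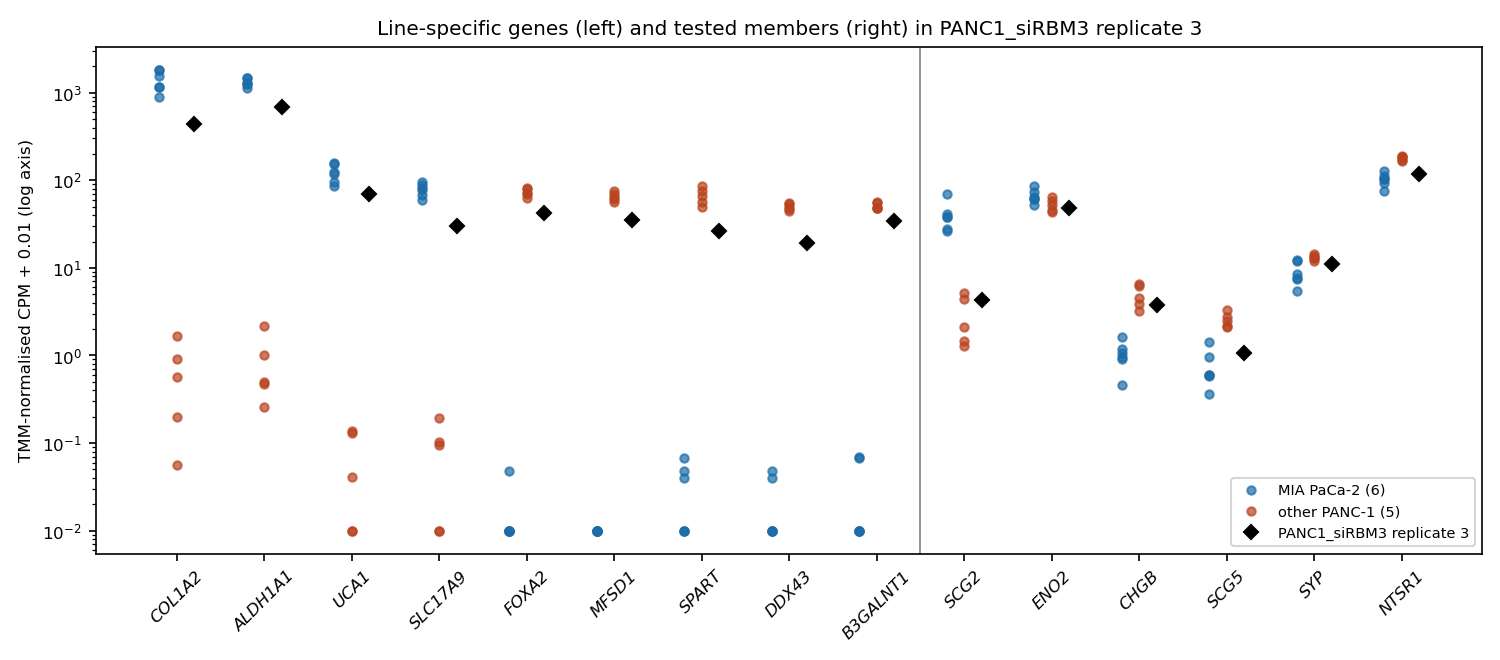
TMM-normalised CPM + 0.01 on a log axis for line-specific genes (left of the line) and the 6 tested members (right), with a point for each of 6 MIA PaCa-2 libraries, 5 other PANC-1 libraries and PANC-1 RBM3 siRNA replicate 3 (diamond). COL1A2 in the diamond library is 441 CPM, while its SCG2 is 4.27 CPM.

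Of the members, 4 were below 1 CPM in all 12 libraries, namely CHGA, PCSK1, SSTR2 and INSM1, and none of them passed the low-count filter, so they were described and not tested. SCG5 was below 1 CPM in 5 libraries and CHGB in 3, all of MIA PaCa-2. By the mean over a line, 5 of 10 members reached 1 CPM in MIA PaCa-2 and 6 of 10 in PANC-1. CHGB sits at the limit in MIA PaCa-2, where its mean of 1.03 CPM made the count 4 when control replicate 2 or RBM3 siRNA replicate 5 was left out. With thresholds of 0.5 and 2 CPM the MIA PaCa-2 count was 6 and 4, and the PANC-1 count stayed at 6.

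**Figure D2:**
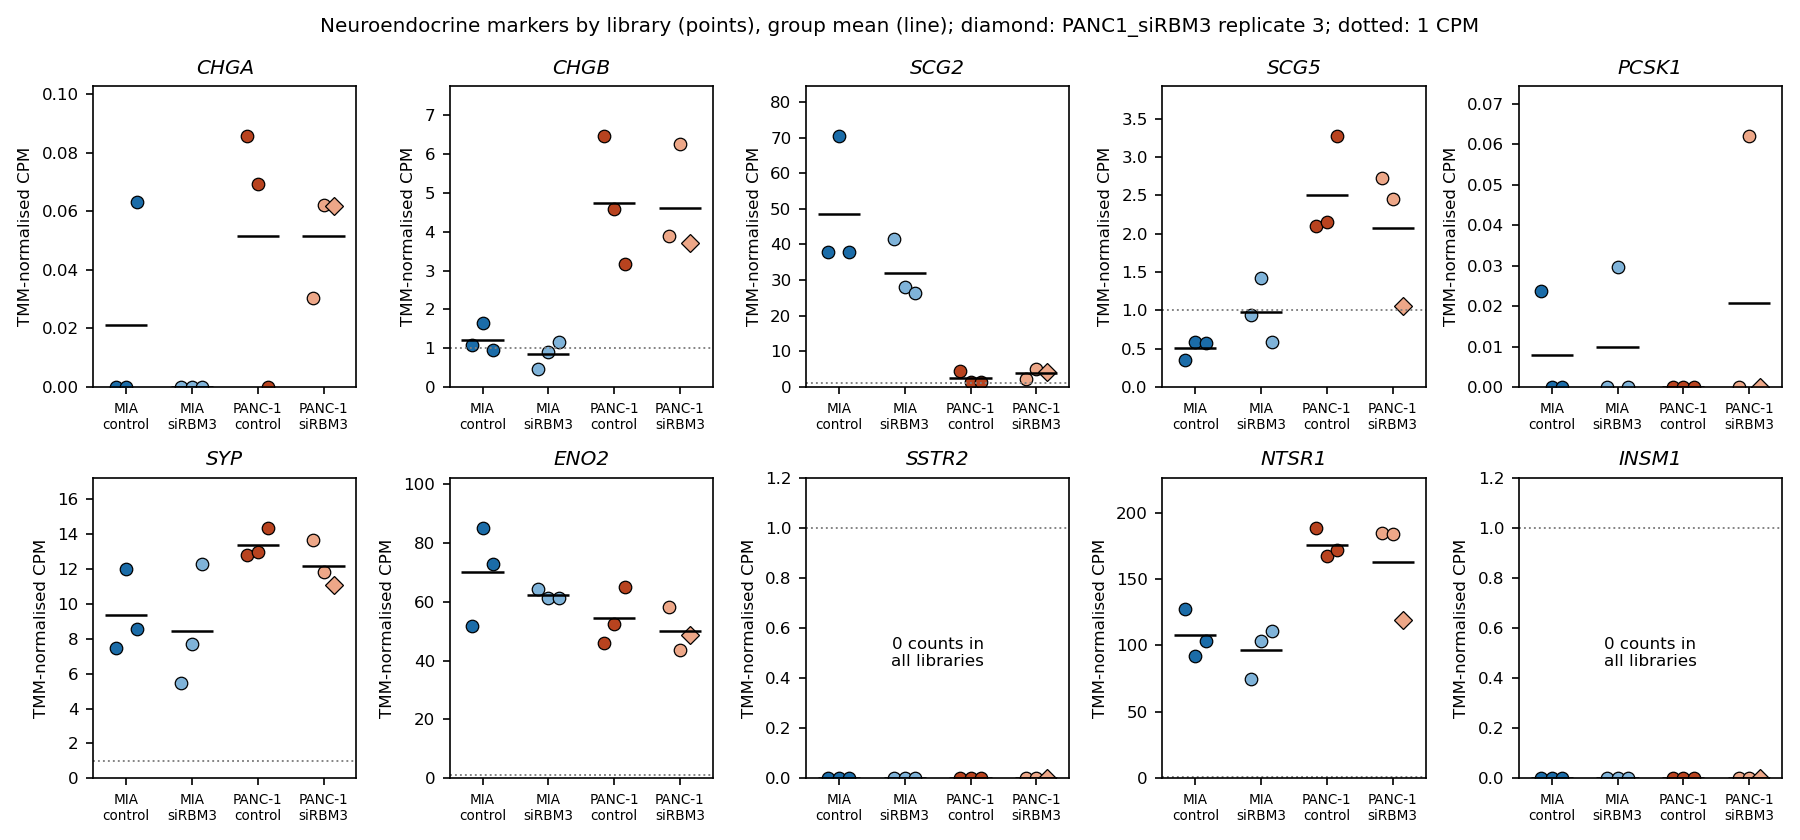
TMM-normalised CPM of the 10 members in each library (points) with group means (lines), a panel per gene with its own linear axis from 0; the dotted line is 1 CPM and the diamond is PANC-1 RBM3 siRNA replicate 3. CHGB and SCG5 sit higher in PANC-1 control than in MIA PaCa-2 control, SCG2 sits far lower, and SSTR2 and INSM1 have 0 counts throughout.

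CHGA, the chromogranin A that is the standard serum and tissue marker, was close to absent. It gave 0, 0 and 0.0631 CPM in MIA PaCa-2 control, 0 CPM in all 3 MIA PaCa-2 RBM3 siRNA libraries, 0.0856, 0.0694 and 0 CPM in PANC-1 control and 0.0303, 0.0620 and 0.0619 CPM in PANC-1 RBM3 siRNA. These are 8 counts in all PANC-1 libraries together and 1 count in all MIA PaCa-2 libraries. As pooled CPM that is 0.0509 in PANC-1 (exact 95% Poisson interval 0.0220 to 0.100) and 0.00664 in MIA PaCa-2 (0.000168 to 0.0370). The intervals cover counting error only and overlap, which does not test the difference between the lines. Under RBM3 siRNA every PANC-1 library was above every MIA PaCa-2 library, with 5 counts against 0. Without the low-count filter edgeR gave CHGA an unadjusted p of 0.0540 there (adjusted p = 0.170). PCSK1, the convertase that starts the cutting of proinsulin and proopiomelanocortin, had 2 counts in each line, from 3 libraries. SSTR2, the somatostatin receptor bound by octreotide, and INSM1 had 0 counts in every library. The limit of 3 counts over the 6 libraries of a line is 0.0199 CPM in MIA PaCa-2 and 0.0191 CPM in PANC-1, and the two-sided exact 95% Poisson interval reaches 0.0245 and 0.0235 CPM. In the reference annotation 277 of the 7852 exon bases of SSTR2 lie in another gene on the same strand, AC097641.1, which had 104 counts, and reads there could be lost to SSTR2.

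The granins that were expressed went in opposite directions between the lines. SCG2, secretogranin II and the precursor of secretoneurin, measured 37.9, 70.4 and 37.8 CPM in MIA PaCa-2 control and at 4.41, 1.46 and 1.29 CPM in PANC-1 control. Every MIA PaCa-2 library was above every PANC-1 library. The edgeR log2 difference of PANC-1 minus MIA PaCa-2 was -4.33 (SE 0.52, 95% interval -5.45 to -3.20, adjusted p = 3.82e-05), a 20.0-fold lower level. Without PANC-1 control replicate 1, the highest of its group, the level was 35.1-fold lower, and 15.6-fold to 22.2-fold lower when any other single library was left out. With RBM3 siRNA, SCG2 measured 41.6, 28.1 and 26.3 CPM in MIA PaCa-2 and 2.12, 5.15 and 4.27 CPM in PANC-1, again without overlap. There the edgeR log2 difference was -3.06 (SE 0.48, adjusted p = 0.000386), and -3.14 without PANC-1 RBM3 siRNA replicate 3.

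CHGB, chromogranin B, showed the reverse order. It measured 1.07, 1.64 and 0.946 CPM in MIA PaCa-2 control and 6.46, 4.58 and 3.18 CPM in PANC-1 control. All 3 PANC-1 libraries lay above all 3 MIA PaCa-2 libraries. In edgeR the log2 difference was 1.97 (SE 0.42, 95% interval 1.06 to 2.87, adjusted p = 0.00202). With RBM3 siRNA the values were 0.451, 0.892 and 1.17 CPM in MIA PaCa-2 and 3.88, 6.26 and 3.71 CPM in PANC-1, without overlap. PANC-1 exceeded MIA PaCa-2 by a log2 difference of 2.48 (SE 0.42, edgeR adjusted p = 0.000708), and by 2.62 without PANC-1 RBM3 siRNA replicate 3.

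SCG5, also called 7B2, is the chaperone of the convertase PCSK2. It measured 0.357, 0.589 and 0.568 CPM in MIA PaCa-2 control and 2.10, 2.15 and 3.27 CPM in PANC-1 control, so the groups did not overlap and the MIA PaCa-2 levels rested on few reads. With edgeR the log2 difference was 2.35 (SE 0.48, 95% interval 1.32 to 3.38, adjusted p = 0.00149). Under RBM3 siRNA the libraries overlapped, at 0.940, 1.43 and 0.584 CPM in MIA PaCa-2 and 2.73, 2.45 and 1.05 CPM in PANC-1. The edgeR log2 difference was then 1.05 (SE 0.43, adjusted p = 0.0671) and missed the threshold. The lowest PANC-1 value was that of replicate 3, and without it the log2 difference was 1.35 (SE 0.40, edgeR adjusted p = 0.0131).

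SYP, synaptophysin, an integral membrane protein of synaptic and small secretory vesicles, was detected in all libraries. It measured 7.47, 11.98 and 8.58 CPM in MIA PaCa-2 control and 12.8, 13.0 and 14.4 CPM in PANC-1 control. The groups did not overlap, but the edgeR log2 difference of 0.52 (SE 0.29, 95% interval -0.12 to 1.16, adjusted p = 0.157) did not pass. With RBM3 siRNA the libraries overlapped, at 5.45, 7.70 and 12.3 CPM in MIA PaCa-2 and 13.6, 11.8 and 11.1 CPM in PANC-1. The edgeR log2 difference of 0.53 (SE 0.29, adjusted p = 0.158) did not pass, though it was 0.91 (edgeR adjusted p = 0.0233) without MIA PaCa-2 RBM3 siRNA replicate 5. Without PANC-1 RBM3 siRNA replicate 3 it was 0.59 (edgeR adjusted p = 0.125). In the reference annotation 68 exon bases of SYP lie opposite SYP-AS1, and the strand setting of the counting is not given in the sources used here.

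ENO2, neuron-specific enolase, the glycolytic isoform of neurons and endocrine cells, was abundant in both lines. It measured 51.8, 85.1 and 72.9 CPM in MIA PaCa-2 control and 46.0, 52.3 and 64.9 CPM in PANC-1 control, with overlap. Its edgeR log2 difference was -0.36 (SE 0.20, 95% interval -0.80 to 0.08, adjusted p = 0.153). Without MIA PaCa-2 control replicate 1 it was -0.51 and passed (edgeR adjusted p = 0.0417). With RBM3 siRNA the libraries were at 64.3, 61.1 and 61.3 CPM in MIA PaCa-2 and 58.1, 43.6 and 48.7 CPM in PANC-1. They did not overlap, and the edgeR log2 difference of -0.31 (SE 0.20, adjusted p = 0.222) did not pass, nor did that of -0.30 without PANC-1 RBM3 siRNA replicate 3. ENO1, the isoform of most tissues, averaged 1860 CPM in MIA PaCa-2 and 2135 CPM in PANC-1 over 6 libraries each, with no call, while ENO3, the muscle isoform, averaged 10.2 and 20.2 CPM and was higher in PANC-1 control (log2 difference 1.12, edgeR adjusted p = 0.00405).

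NTSR1, the high-affinity neurotensin receptor, was the most expressed member. It measured 128, 92.3 and 103 CPM in MIA PaCa-2 control and 189, 167 and 172 CPM in PANC-1 control, without overlap. The edgeR log2 difference was 0.71 (SE 0.21, 95% interval 0.26 to 1.16, adjusted p = 0.0129), and without MIA PaCa-2 control replicate 2 it was 0.61 with an edgeR adjusted p of 0.0542. With RBM3 siRNA the libraries were at 74.6, 104 and 111 CPM in MIA PaCa-2 and 185, 184 and 119 CPM in PANC-1. They did not overlap, and the edgeR log2 difference was 0.76 (SE 0.21, adjusted p = 0.0116), or 0.94 without PANC-1 RBM3 siRNA replicate 3 (adjusted p = 0.00160). Its peptide went the other way. NTS, neurotensin, averaged 5.34 CPM in MIA PaCa-2 control and 0.260 CPM in PANC-1 control, with an edgeR log2 difference of -4.36 (adjusted p = 0.00141).

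In all, 4 of the 6 tested members differed between the lines under control siRNA, 3 higher in PANC-1 and 1 lower. Over all 17862 tested genes 50.8% differed, 26% higher and 24.8% lower, so the members' share is close to that of genes at large. Under RBM3 siRNA 3 of 6 differed, 2 higher and 1 lower, against 43.6% of all genes, 24.2% higher and 19.3% lower. Without PANC-1 RBM3 siRNA replicate 3 it was 4 of 6, SCG5 being added, and the share of all genes rose as well, to 50.2% of 18422 tested.

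**Figure D3:**
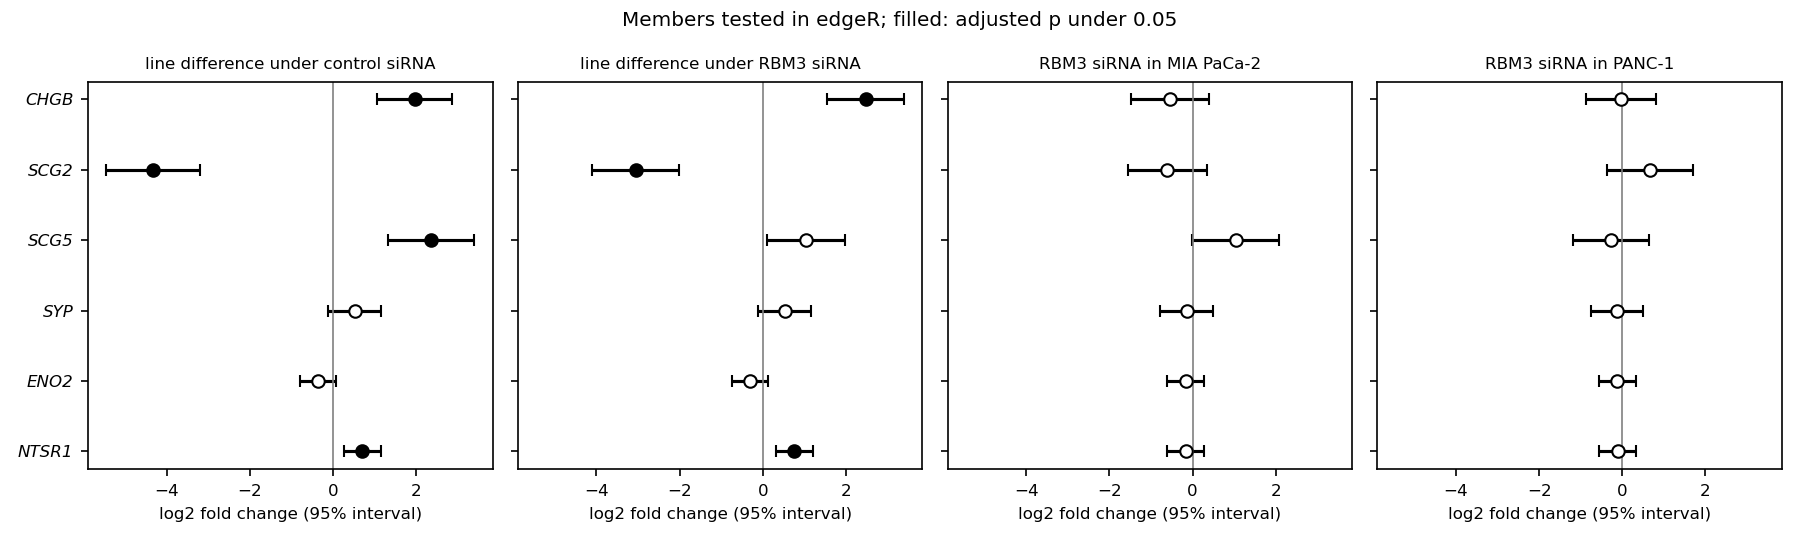
edgeR log2 fold change with its 95% interval for the 6 tested members, in PANC-1 minus MIA PaCa-2 under each siRNA and in RBM3 siRNA minus control in each line; filled points have an adjusted p under 0.05. SCG2 is at -4.33 and -3.06 in the line comparisons, CHGB at 1.97 and 2.48, and no point is filled in the siRNA comparisons.

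None of the tested members passed the test with RBM3 siRNA in either line. In MIA PaCa-2 edgeR called 0 of 6, against 2 of all 17862 genes (0.0112%), and in PANC-1 it called 0 of 6, against 0 genes (0%). RBM3, the siRNA target, was called in MIA PaCa-2 (log2 change -2.35, edgeR adjusted p = 0.0426). In PANC-1 RBM3 was not called either, with a log2 change of -1.93 (edgeR unadjusted p = 2.89e-05, adjusted p = 0.516). The lack of a call in PANC-1 therefore says little about the members. At an unadjusted p under 0.05 the count of members was 0 in both lines, and DESeq2 also called 0 after adjustment. Few genes at large were under 0.05. In MIA PaCa-2 an edgeR unadjusted p of 0.0502 (SCG5) ranked 528 of all 17862 genes, and in PANC-1 one of 0.0702 (REST) ranked 1016. A count of 0 of 6 therefore says little about the members. The member nearest to a call was SCG5 in MIA PaCa-2. It was at 0.505 ± 0.128 CPM in control and 0.984 ± 0.423 CPM in RBM3 siRNA libraries (SD, n = 3), and the groups overlapped. Its edgeR log2 change was 1.03 (SE 0.48, 95% interval -0.00120 to 2.07, unadjusted p = 0.0502, adjusted p = 1). Its unadjusted p was 0.0249 without PANC-1 RBM3 siRNA replicate 3 (95% interval 0.15 to 1.94) and 0.0486 without the low-count filter, and the edgeR adjusted p was 1 in both.

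The 95% intervals bound each change gene by gene, without adjustment for the number of genes tested. They do not limit the size of a change that can go uncalled, because calls used the adjusted p. In PANC-1 the log2 change of RBM3 was -1.93 (95% interval -2.59 to -1.28), and it was not called (edgeR adjusted p = 0.516). In MIA PaCa-2 the log2 change of SCG2 was -0.60 (95% interval -1.56 to 0.36) and of CHGB -0.55 (-1.48 to 0.39). ENO2 and NTSR1 were bounded more tightly, at -0.17 (-0.60 to 0.27) and -0.16 (-0.61 to 0.28). In PANC-1 the log2 changes were 0.67 for SCG2 (-0.36 to 1.70), -0.04 for CHGB (-0.88 to 0.80), -0.27 for SCG5 (-1.19 to 0.64), -0.13 for SYP (-0.77 to 0.50), -0.12 for ENO2 (-0.55 to 0.32) and -0.11 for NTSR1 (-0.56 to 0.33). Without PANC-1 RBM3 siRNA replicate 3 the values were 0.57 for SCG2, 0.08 for CHGB, 0.03 for SCG5, -0.09 for SYP, -0.12 for ENO2 and 0.05 for NTSR1, none of them called. The difference between the 2 lines' responses was tested in the same model and called 0 of all genes (0%). It was 1.27 (95% interval -0.14 to 2.68) for SCG2, 0.51 (-0.75 to 1.76) for CHGB and -1.31 (-2.69 to 0.07) for SCG5, and 1.16, 0.64 and -1.02 without PANC-1 RBM3 siRNA replicate 3. Without PANC-1 control replicate 1 the SCG2 value was 2.09, and its change in PANC-1 was 1.49, neither of them called. Without that library and PANC-1 RBM3 siRNA replicate 2, SCG2 changed by 1.22 in PANC-1 (0.22 to 2.22, edgeR unadjusted p = 0.0209, adjusted p = 0.665). Its difference between the responses was then 1.83 (0.61 to 3.04, edgeR unadjusted p = 0.00689). With all libraries but no low-count filter that difference was 1.29 (0.30 to 2.27, edgeR unadjusted p = 0.0120, adjusted p = 0.806). None of these was called.

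Levels of different genes can be compared only per length, and CPM was divided by the kilobases of exon in the reference annotation. In MIA PaCa-2 the order was NTSR1 at 24.1 ± 4.20, ENO2 at 15.4 ± 2.69 and SCG2 at 14.8 ± 5.84 CPM per kb, then SYP at 1.71 ± 0.516, SCG5 at 0.339 ± 0.175 and CHGB at 0.227 ± 0.0854 (SD, n = 6). ENO2 and SCG2 did not differ beyond their spread there, nor did SCG5 and CHGB. In PANC-1 it was NTSR1 at 40.0 ± 6.09, ENO2 at 12.2 ± 1.87 and SYP at 2.45 ± 0.227 CPM per kb, followed by SCG2 at 1.15 ± 0.620, SCG5 at 1.04 ± 0.339 and CHGB at 1.03 ± 0.304, which lay within each other's spread. Over the 5 PANC-1 libraries without RBM3 siRNA replicate 3, NTSR1 was at 42.3 ± 2.18, SCG2 at 1.06 ± 0.653, SCG5 at 1.16 ± 0.219 and CHGB at 1.07 ± 0.319 CPM per kb (SD, n = 5). SCG2 thus lay at the level of ENO2 in MIA PaCa-2 and at that of CHGB in PANC-1.

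Over the 12 libraries, the tested gene whose log2 CPM followed SCG2 most closely was GBP2 (Pearson r = 0.986), then IL17RE and ARL2BP. The nearest to CHGB was BAG3 (r = 0.984), to SCG5 SIX2 (r = 0.967), to SYP NUBP2 (r = 0.987), to ENO2 LSM14B (r = 0.902) and to NTSR1 MUC1 (r = 0.971). These libraries come from only 2 lines, so a gene that differs between lines follows any other that does, and the coefficients are given as a description. Without PANC-1 RBM3 siRNA replicate 3, over 11 libraries, NUBP2 and MUC1 were still nearest to SYP and NTSR1, while CNOT3 (r = 0.989), NUDT21 (r = 0.992), NSMCE2 (r = 0.971) and SEMA4C (r = 0.928) were nearest to CHGB, SCG2, SCG5 and ENO2.

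The wider granule machinery differed gene by gene in the same mixed way. The counts given for this and the other lists stand beside 26% higher and 24.8% lower over all tested genes under control siRNA. Of 9 granins and relatives, 4 were below 1 CPM in every library, and of the 6 tested 3 were higher and 2 lower in PANC-1 control. SCG3, with 0 counts in MIA PaCa-2 control, passed the low-count filter through PANC-1. The median log2 difference of the list was 0.56, against 0.00 over all genes. PCSK1N, the proSAAS inhibitor of PCSK1, was lower in PANC-1 control, at 7.36 ± 2.66 CPM against 28.9 ± 6.41 CPM in MIA PaCa-2 control (SD, n = 3, edgeR adjusted p = 0.00282). VGF was named after its values were seen. It was at 57.0 ± 17.0 CPM in MIA PaCa-2 control and 31.7 ± 23.7 CPM in PANC-1 control. The difference did not pass (log2 difference -0.84, edgeR adjusted p = 0.177). Among 10 prohormone-processing genes 7 were tested and 3 were higher and 3 lower. PAM, which amidates peptide hormones, was higher in PANC-1 control (edgeR adjusted p = 0.000467). It was at 129 ± 12.5 CPM there and 63.6 ± 9.76 CPM in MIA PaCa-2 control. CPD and PCSK7 were also higher. The convertase PCSK6 was lower, at 7.56 ± 1.15 CPM in PANC-1 control and 26.3 ± 1.28 CPM in MIA PaCa-2 control (edgeR adjusted p = 0.000260).

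Of 28 vesicle exocytosis genes 21 were tested, 5 higher and 7 lower in PANC-1, with a median log2 difference of -0.05. SV2A, a synaptic vesicle glycoprotein with 1 count in MIA PaCa-2 control, averaged 6.74 CPM in PANC-1 control and 0.00793 CPM in MIA PaCa-2 control. SYT11 was at 11.1 and 0.680 CPM, and SYT5, with a wide spread in PANC-1, at 9.29 ± 11.3 and 0.472 ± 0.248 CPM (SD, n = 3). RAB27B, a GTPase that docks secretory granules, was far higher in MIA PaCa-2, at 700 ± 226 CPM against 15.0 ± 6.35 CPM (edgeR adjusted p = 0.000496). Of 12 granule biogenesis genes 11 were tested. ATP2A3 and PICK1 were higher in PANC-1 and RAB2A lower.

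Most neuroendocrine transcription factors were near silent in both lines, 15 of 21 being below 1 CPM in every library and INSM1, NEUROD1, SCRT1 and SCRT2 at 0 counts. Of the 6 tested, 2 were higher in PANC-1 control and 3 lower. FOXA2, a foregut factor, was at 73.8 ± 5.64 CPM in PANC-1 control and had 0 counts in MIA PaCa-2 control, so the low-count filter fixed its direction. PAX6, an eye and islet factor, was at 33.2 ± 3.56 CPM in MIA PaCa-2 control and 0.748 ± 0.315 CPM in PANC-1 control (edgeR adjusted p = 0.000970). In PANC-1 RBM3 siRNA replicate 3 PAX6 was 16.1 CPM and RAB27B 264 CPM.

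REST, which represses neuronal genes in other cells, was expressed in both lines, at 70.0 ± 13.8 CPM in MIA PaCa-2 control and 48.5 ± 6.26 CPM in PANC-1 control (SD, n = 3), and its edgeR log2 difference of -0.53 did not pass (adjusted p = 0.0716). All 10 genes of its complex were tested, with 1 higher and 2 lower. HDAC2 was higher in PANC-1 and the corepressor RCOR1 and the histone methyltransferase EHMT2 were lower.

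Peptides and their receptors were sparse beyond NTSR1. Of the 10 somatostatin and neurotensin genes with a row, 6 were below 1 CPM in every library, and 1 of the 4 tested was higher and 2 lower. SST averaged 0 CPM in MIA PaCa-2 and 0.0153 CPM in PANC-1. SSTR5, named after its values were seen, averaged 1.65 and 3.32 CPM and did not pass under control siRNA (edgeR adjusted p = 0.176). SORT1, the sorting receptor that also binds neurotensin, was lower in PANC-1, at 72.9 ± 2.93 and 34.3 ± 5.69 CPM (SD, n = 3, edgeR adjusted p = 0.00117). INS, GCG, PPY and GAST had 0 counts in all libraries. ADM, adrenomedullin, was the 1 gene of 13 hormone genes that reached 1 CPM, at 185 ± 73.1 CPM in PANC-1 control and 3.93 ± 0.752 CPM in MIA PaCa-2 control (edgeR adjusted p = 1.88e-05).

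Among other tumour markers of neuroendocrine type, DLL3, L1CAM and RET were higher in PANC-1. Of 19 with a row, 15 were below 1 CPM in every library, and of the 7 tested 6 were higher and 1 lower. UCHL1, INA and NEFH had 0 or 1 count in MIA PaCa-2 control, and TH had 3 counts in PANC-1 control. These 4 passed the low-count filter through the line where they were higher, so the filter fixed their direction. The median log2 difference was 4.54, or 3.80 with these genes set at the limit of 3 counts. DLL3, a Notch ligand targeted in small-cell lung carcinoma, was at 211 ± 42.3 CPM in PANC-1 control and 3.13 ± 0.934 CPM in MIA PaCa-2 control (SD, n = 3, edgeR adjusted p = 8.11e-08). L1CAM, a neural adhesion molecule, was at 317 ± 66.7 and 22.7 ± 4.74 CPM. RET, a receptor tyrosine kinase, was at 12.6 ± 3.35 and 4.53 ± 1.06 CPM. In the reference annotation 1584 of the 4430 exon bases of TUBB3 lie in another gene on the same strand, AC092143.1, which had 39 counts. Whether reads there were lost to TUBB3 was not tested, so its low count may understate its level. No gene of these lists passed in either siRNA comparison.

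**Figure D4:**
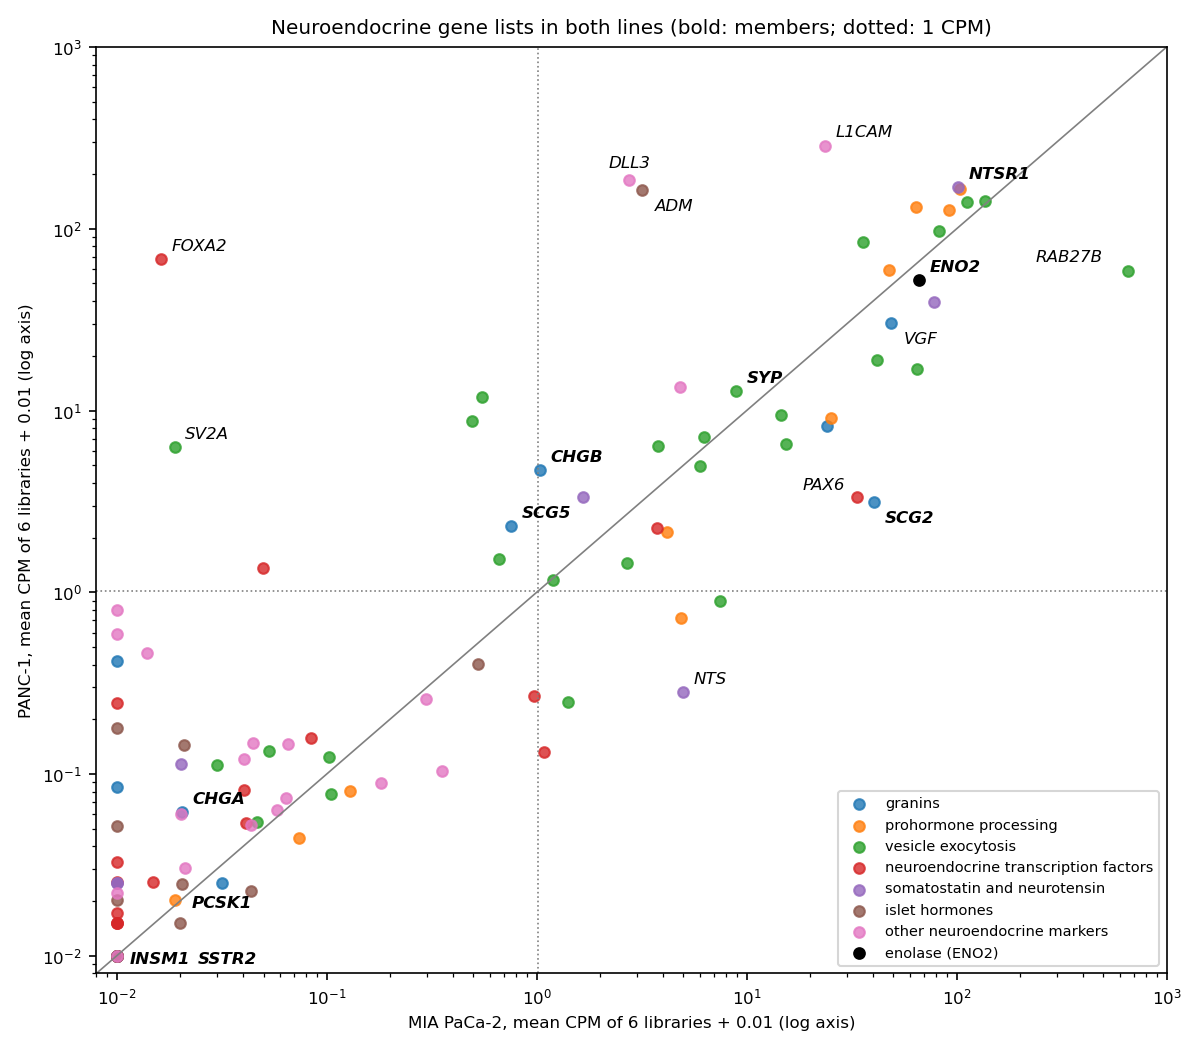
Mean CPM + 0.01 over 6 libraries in PANC-1 against MIA PaCa-2, both on log axes, for the genes of 7 neuroendocrine lists and ENO2 (points coloured by list, members in bold, equal levels on the diagonal, 1 CPM dotted). SCG2, PAX6 and RAB27B lie below the diagonal, DLL3, L1CAM, ADM and FOXA2 above it, and CHGA, PCSK1, SSTR2 and INSM1 in the lower left corner.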

How the data were processed

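The deposited values are raw counts per Ensembl gene, made by the authors with STAR, Picard and featureCounts of Subread on hg19/GRCh37, per the submitters' processing notes, from paired 75 bp reads. The sources used here give no annotation release or strand setting. The deposited counts are named as duplicate-marked (markdup), and whether marked reads were counted is not stated. The labels name both total and cytoplasmic RNA, and 2 media, not assigned to a line. Gene names matched 52181 of 63677 identifiers. No RefSeq promoter window was used for CHGB, SCG2 and INSM1. Exon lengths and overlaps come from an annotation of another build (GRCh38).

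edgeR 4.0.16 in R 4.3.3 fitted all 12 libraries in 1 model of 4 group means (TMM, filterByExpr with a minimum count of 10, 17862 genes, 8 residual degrees of freedom, two-sided quasi-likelihood F-test, Benjamini-Hochberg adjustment at 0.05). The SE is the log2 fold change over the square root of F. Correlations used log2 of CPM + 0.5. Replicates were compared by a chi-square of their counts per degree of freedom (10.6 to 164), which leaves no pair of copies within a group. The model was tested on simulated data for the line difference under control siRNA alone, with the same spread set for every gene. The siRNA comparisons were not simulated. The members and lists were chosen with earlier results of these data known. Named from each list were up to 4 genes called under control siRNA at 5 CPM or more, largest change first, with REST, SST, NTS and the enolases, and the 3 tested genes that correlated best with each tested member. Other genes were named after their values were seen. Alternatives were DESeq2 1.42.0, other size factors, other filters, the replicate number as a block and leaving out each library.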

Additional observations from a re-analysis of the deposited data

How the results depend on the processing

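The members called between the lines numbered 3 to 5 under control siRNA and 3 to 4 under RBM3 siRNA over 19 alternatives, and 0 in both siRNA comparisons and in the difference of responses under each. SCG2 and CHGB were called in both line comparisons under all 19, SCG2 with log2 differences of -5.14 to -3.96 under control siRNA and CHGB with 1.68 to 2.22, and SCG5 was called under all 19 under control siRNA (2.11 to 2.49). The replicate numbers did not pair the libraries (same-number correlations of 0.11, -0.06 and 0.03 in the control line comparison and -0.46 and -0.42 in the PANC-1 siRNA comparison, where differently numbered libraries reached 0.66). With the replicate block SYP was called under RBM3 siRNA (0.98, edgeR adjusted p = 0.0324), the PANC-1 siRNA changes of SCG5, ENO2 and NTSR1 turned to 0.25, 0.00983 and 0.0452 without a call, and the genes called in MIA PaCa-2 with RBM3 siRNA fell from 2 to 0. SCG5 under RBM3 siRNA was also called without MIA PaCa-2 RBM3 siRNA replicate 2 (1.42, edgeR adjusted p = 0.0491). Over all genes, the MIA PaCa-2 siRNA comparison gave 20 calls with DESeq2, 0 with median-of-ratios factors and 0 to 3 when a library was left out. The PANC-1 siRNA comparison gave 3 with DESeq2, 230 without the low-count filter and 0 to 1 when a library was left out, with 1 also without PANC-1 control replicate 1 and RBM3 siRNA replicate 2, and the difference of responses gave 3 with DESeq2 and 107 without the filter. The cause was not tested. Leaving out 1 library at a time turned uncalled siRNA changes of SYP in MIA PaCa-2 (-0.51 to 0.0845) and, in PANC-1, of CHGB (-0.34 to 0.25), ENO2 (-0.23 to 0.0344), SCG5 (-0.51 to 0.0280, and -0.52 without that pair) and NTSR1 (-0.23 to 0.0522). Without PANC-1 RBM3 siRNA replicate 3, an alternative added after seeing the data, the counts of called genes on the gene lists were equal to those given under control siRNA. CHGA, PCSK1, SSTR2 and INSM1 had 0 to 8 counts a line, which is too few for the low-count filter.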
